A study of Mus musculus with 12 samples.

Results

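The genes described here encode the voltage-gated sodium and calcium channels, the potassium channels of every family and the hyperpolarization-activated channels, together with their auxiliary subunits. They were taken by symbol, as those that begin with Kcn, Cacn, Scn and a digit or Hcn and a digit. Of 143 matching symbols, 5 antisense or overlapping transcripts with an os or ot ending were left out, 3 of them with a number after the ending (Kcnmb4os1, Kcnmb4os2, Kcnq1ot1). This left 138 of the 55885 genes listed, and 53 of the 138 passed the filter for expression, which asked for 3 or more hearts at a TPM of 1 or higher. TPM is a level scaled to gene length and to the sum of its library, so that levels of different genes can be set side by side.

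RNA-seq was performed on cardiac tissues of 12 mice, 3 in each of 4 groups. Saline hearts came from wild type C57BL/6 mice, which the labels call untreated. CDDP hearts came from wild type mice given cisplatin, a platinum drug that crosslinks DNA and is toxic to the heart, at 6 mg/kg into the peritoneum on days 1, 8 and 15. STING-/- hearts came from mice with a germline knockout of Sting1, the adaptor of cytosolic DNA sensing, without cisplatin, and STING-/-+CDDP hearts came from such mice given the same cisplatin course. According to the methods, the mice were male, 8 weeks old at the start and of C57BL/6J background, and hearts were collected on day 22. Each library was made from bulk tissue, in which fewer cells of a type and less RNA per cell cannot be told apart, and the knockout was in every cell.

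Each heartbeat is shaped by these genes in turn. Sodium channels carry the fast upstroke of the action potential, L-type calcium channels the plateau and the trigger for contraction, and potassium channels the repolarization. Inward rectifiers hold the resting potential, and hyperpolarization-activated channels carry the pacemaker current. Pore subunits form the conducting path, while auxiliary subunits set how many channels reach the membrane and how they open. The mouse ventricle repolarizes mainly through transient outward and ultrarapid currents, and relies less than larger hearts on the rapid and slow delayed rectifiers.

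Some facts of the libraries bear on all that follows. Sting1 held a TPM of 6.5 to 12.28 in Saline and 5.62 to 22.11 in CDDP hearts against 2.87 to 5.96 in STING-/- and 3.37 to 4.67 in STING-/-+CDDP hearts, so the genotypes did not overlap within either treatment. All 7 cardiomyocyte markers passed the filter, and 1 of 5 skeletal muscle markers did (Tnni2, with the list summing to 3.92 to 20.96). CDDP heart 1 stood apart. It had the lowest TPM of the 12 hearts for 28 of the 53 channel genes, which summed to 308.6 there against 469.76 to 710.7 elsewhere. Its cardiomyocyte markers summed to 16036 against 22564 to 35630, and its 3 neutrophil markers to 864.89 against 2.98 to 75.35. The 5 atrial markers differed widely within groups, from 310.19 and 338.74 in Saline hearts 1 and 3 to 39132 in Saline heart 2. In the other groups they spanned 857.62 to 14625 in CDDP, 3026 to 12853 in STING-/- and 330.6 to 9025 in STING-/-+CDDP hearts. The part of these differences in the results was not tested except by the fits named beside them. The precision of all values rests on 3 hearts a group, with the depth of the libraries unknown.

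The levels of the 53 genes spanned a wide range. The tandem-pore leak channel Kcnk3 was highest, at a mean TPM of 63.1 over the 12 hearts, and Kcnk13 lowest at 0.767. After Kcnk3 came Kcnip2 at 48.6, the partner of the transient outward channels, and Kcnj11 at 43.5, the pore of the ATP-sensitive potassium channel. Among the next came Kcnh2 (32.8), Kcng2 (29.0), Kcnj8 (28.3), Kcnj5 (23.0), Kcnj3 (22.6) and Cacna1c (20.5). Neighbours among these genes did not separate, since the hearts of each spread over a wider range than the steps between their means. Kcnh2, for example, spanned 18.44 to 51.51, and Kcng2 spanned 12.33 to 45.65. In all, 16 genes had a mean of 10 or more, 7 a mean from 5 to under 10, 14 from 2 to under 5 and 16 under 2. At a TPM of 1 or more in every heart there were 32 genes.

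**Figure D1:**
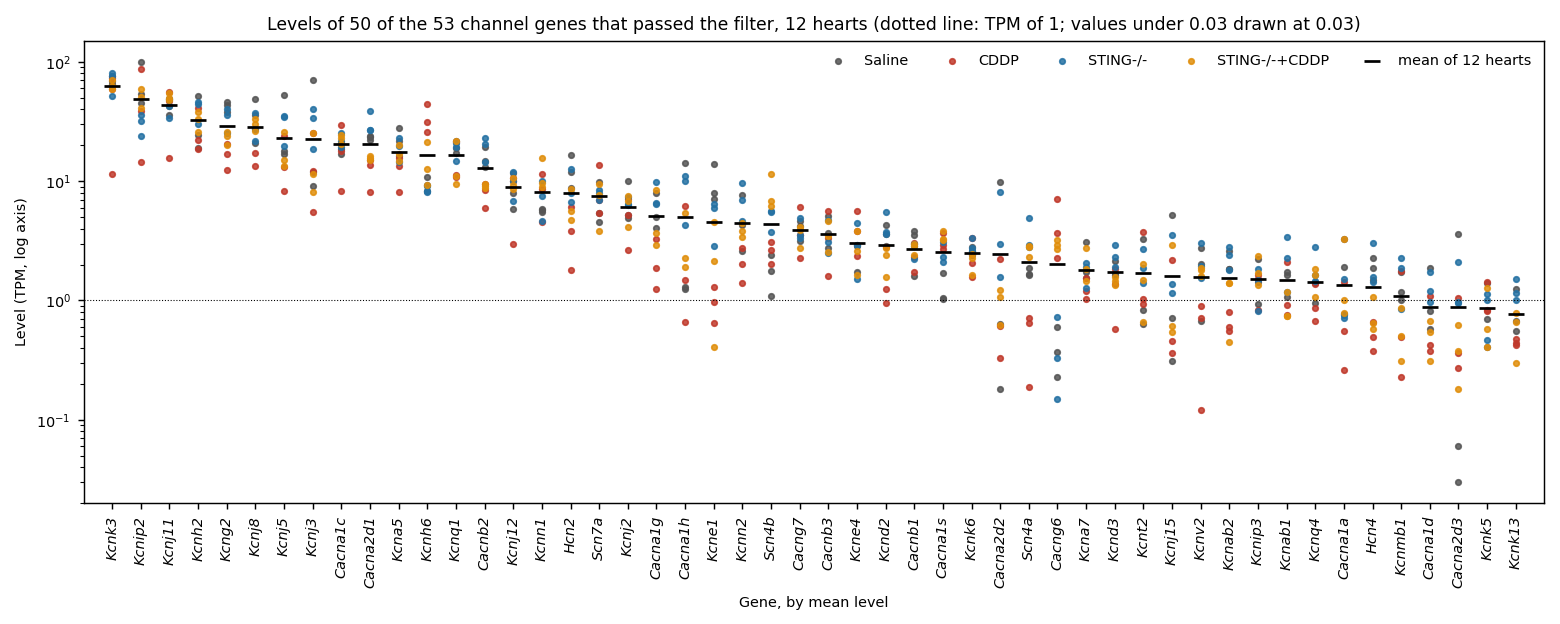
Levels of 50 of the 53 channel genes that passed the filter, as TPM on a log axis against the genes in the order of their mean, with 1 point for each of the 12 hearts coloured by group and a dash for the mean of 12. Kcnk3 stands first at a mean of 63.1 and Kcnk13 last at 0.767.

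The other 85 genes stayed under the filter. Among them, 11 were listed at 0 in all 12 hearts (Cacng2, Cacng3, Kcng3, Kcnh5, Kcnj1, Kcnk9, Kcnk15, Kcnk16, Kcnk18, Kcns2 and Kcnv1), and 78 in all never reached a TPM of 1. The remaining 7 reached it in 1 or 2 hearts (Kcna1, Kcna6, Kcne3, Kcnk2, Kcnma1, Kcnmb4 and Kcnn4). The highest of these values was 2.11, for the mechanosensitive leak channel Kcnk2 in Saline heart 1. Of the 53 that passed, 44 had a heart at 1 or more in all 4 groups, 7 in 3 groups and 2, Cacng6 and Kcnk13, in only 2 groups. A gene that passed through the groups where it was high had to differ between groups. This holds for Cacng6, and for Kcnk13, at 1 or more only in hearts without cisplatin. The called genes Scn4a, Hcn4 and Kcnab2 also had no CDDP heart at 1 or more, so they passed through the other groups. Their calls in CDDP vs Saline, and that of Cacng6, held with no filter.

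Cisplatin in wild type hearts went with lower levels of several channel genes and higher levels of a few. In CDDP vs Saline, 10 of the 53 genes fell (18.9%) in limma's test at a Benjamini-Hochberg adjusted p under 0.05, against 10.4% of all 13815 genes tested, and 3 rose (5.66%), against 8.52% of all genes. In both directions that made 24.5% of the channel genes and 18.9% of all genes. The order of these 2 shares depended on the scaling. It was 24.1% against 27.7% with TPM rescaled by the median of ratios, 22.6% against 28.3% after quantile normalization and 21.3% against 22.5% without mitochondrially encoded genes. The share that fell was 18.5% against 13.8%, 17% against 14.4% and 16.4% against 12.8% in these fits. At an unadjusted p under 0.05 there were 17 channel genes (32.1%), against 33.9% of all genes. The change was negative for 43 of the 53 (81.1%), against 50.2% of all genes. The median log2 fold change was -0.38, where that of all genes was -0.003. The TPM of the groups did not overlap, lower in CDDP, for 13 genes (24.5%) against a background of 17.1%, and higher for 3 genes (5.66%) against 14.9%. Without Saline heart 1 the count was 5 lower and 3 higher (15.1% of the channel genes, against 9.06% of all genes). Without CDDP heart 1 it was 7 lower and 3 higher (18.9%, against 15.7%), and the median came to -0.17 against 0.07 for all genes. Without the atrial-rich Saline heart 2 it was 10 lower and 3 higher of 52 genes (25%, against 18.7%), with a median of -0.17 against 0.09. An exact permutation of single values cannot go below p = 0.1 with 3 hearts against 3, so the tests lean on the spread shared over all groups and genes.

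**Figure D2:**
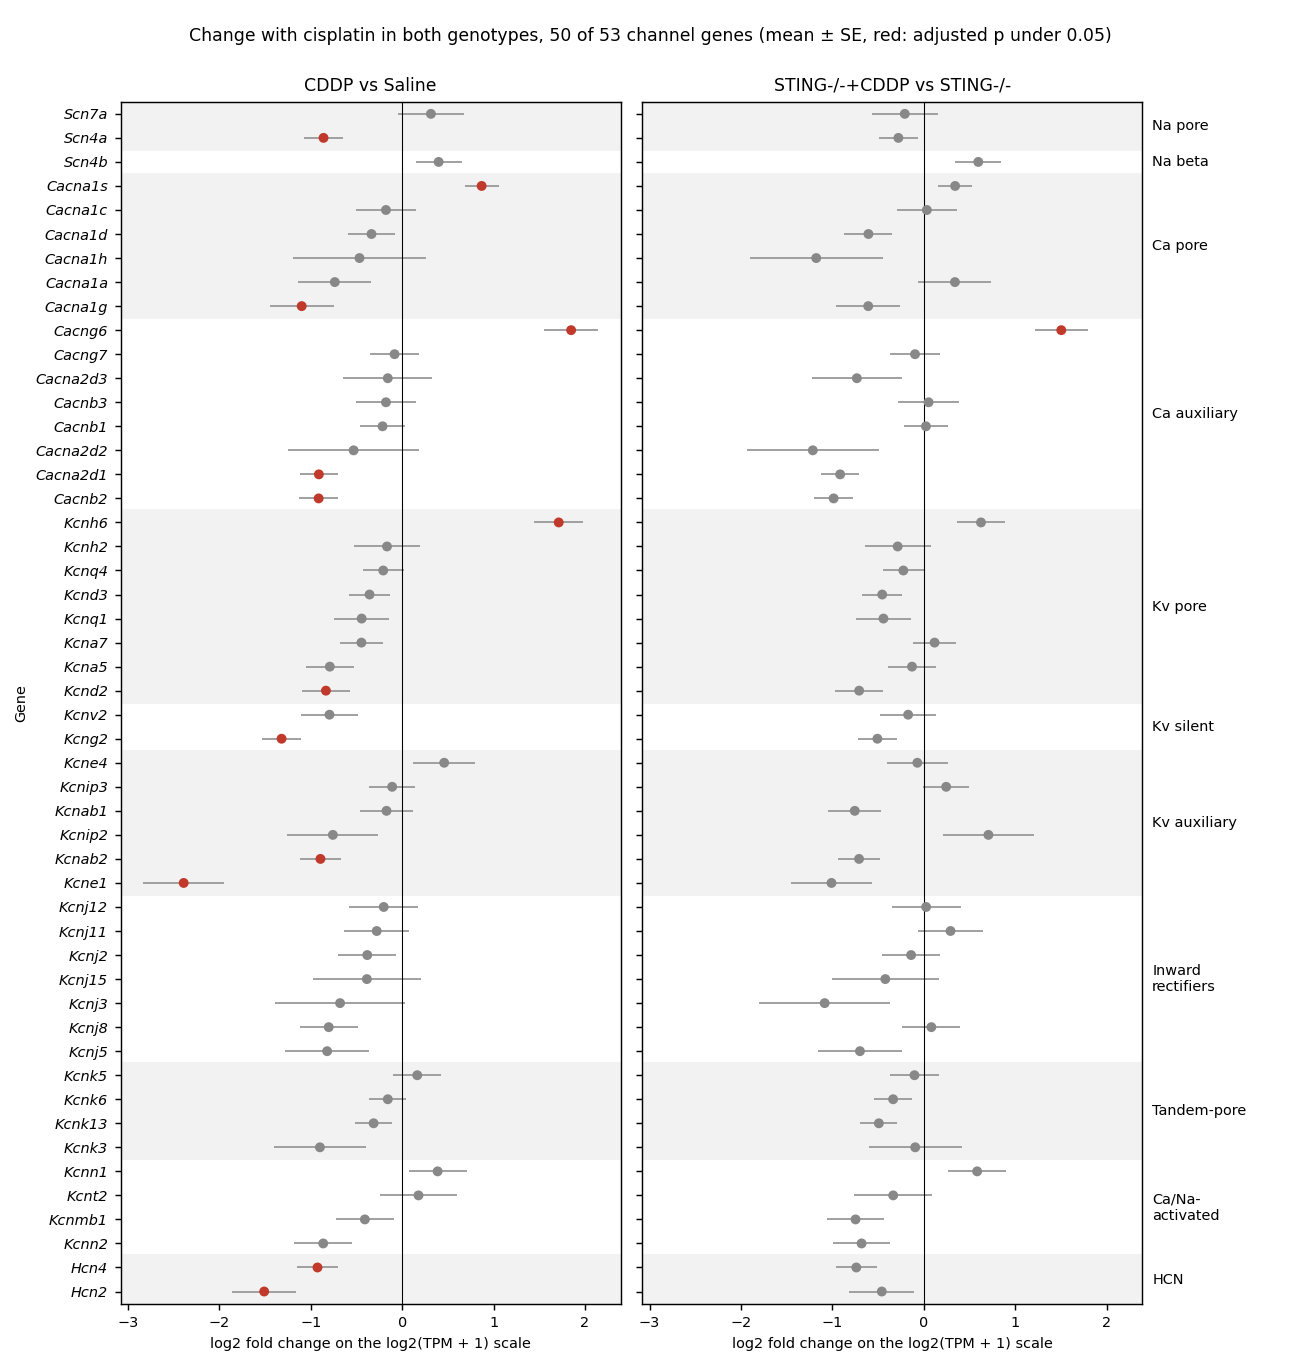
Change with cisplatin for 50 of the 53 channel genes by class, as log2 fold change on the log2(TPM + 1) scale with its standard error, in wild type hearts (CDDP vs Saline) and in knockout hearts (STING-/-+CDDP vs STING-/-), 3 hearts a group; red points passed an adjusted p under 0.05. The wild type panel holds 3 red points to the right and 10 to the left, and the knockout panel holds 1, Cacng6.

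The largest rise relative to its Saline level was that of Cacng6, which encodes a gamma subunit of voltage-gated calcium channels. It held a TPM of 0.60, 0.23 and 0.37 in Saline hearts and 3.69, 7.15 and 2.29 in CDDP hearts. All CDDP hearts lay above all Saline hearts. The mean rose from 0.4 ± 0.19 to 4.38 ± 2.50 (SD, n = 3), a ratio of 10.9, with a log2 fold change of 1.85 ± 0.29 (SE) on the log2(TPM + 1) scale, which understates the change of a gene at so low a level (adjusted p = 0.0023). Cacng6 passed the filter only through hearts given cisplatin, and this call also held with no filter. In the knockout it was at 0.73, 0.15 and 0.33 in STING-/- and at 2.68, 2.90 and 3.20 in STING-/-+CDDP hearts. These groups did not overlap either, and the log2 fold change was 1.5 ± 0.29 (adjusted p = 0.036). With no filter the adjusted p was 0.094, so the knockout call depended on a filter that this gene passed through the hearts where it was high. It was also lost with the replicate number as a block (0.063), with the level of the atrial markers as a covariate (0.057), and without any one of the 6 knockout hearts or Saline heart 3 (0.053 to 0.15). Cacng6 lies at chr7:3424195-3435667 on the plus strand of GRCm38 (GENCODE M21).

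Kcnh6 encodes a potassium channel pore of the ether-a-go-go related family, a relative of Kcnh2, the pore of the rapid delayed rectifier. Its TPM was 10.79, 8.24 and 9.29 in Saline and 44.59, 31.36 and 25.73 in CDDP hearts. The groups were far apart, and the mean rose from 9.44 ± 1.28 to 33.9 ± 9.68, a ratio of 3.59 (log2 fold change 1.71 ± 0.27, adjusted p = 0.0021). Kcnh2 itself had 19.01, 51.51 and 24.16 in Saline and 18.44, 22.09 and 40.68 in CDDP hearts, which overlapped (-0.17 ± 0.36, adjusted p = 0.79). Kcnh6 thus made up 36.2%, 13.8% and 27.8% of the summed TPM of the pair in Saline hearts and 70.7%, 58.7% and 38.7% in CDDP hearts. In the knockout hearts Kcnh6 was at 8.26, 9.17 and 8.06 without and 21.23, 12.68 and 9.29 with cisplatin. The knockout groups did not overlap, and the difference of 0.62 ± 0.27 had an adjusted p of 0.33.

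Cacna1s, the pore of the skeletal muscle L-type channel, was the third gene to rise. Its TPM went from 1.71, 1.02 and 1.04 in Saline to 2.70, 3.69 and 2.92 in CDDP hearts, with no overlap (log2 fold change 0.87 ± 0.19, adjusted p = 0.0093). Its exons overlap those of Gm37759 on the opposite strand. Cacna1c, the pore of the L-type channel of the ventricle, had 20.77, 18.60 and 17.05 in Saline and 8.24, 29.42 and 17.94 in CDDP hearts. It was both lowest and highest in the CDDP group (-0.18 ± 0.32, adjusted p = 0.74). The share of Cacna1s in the summed TPM of the L-type pore genes was 4.74% to 7.34% in Saline and 11% to 23.8% in CDDP hearts. The skeletal muscle markers summed to 3.92 to 20.96 in Saline and 4.06 to 9.33 in CDDP hearts. Of this list, Tnni2 was at 3.18, 18.25 and 3.47 in Saline and 3.63, 5.50 and 7.05 in CDDP hearts. Myh4 and Myh1, skeletal myosins, did not exceed 0.02 in any of these 6 hearts. Scn4a, the sodium channel pore of skeletal muscle, fell in the same contrast. The part of skeletal muscle tissue in the level of Cacna1s was not tested.

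These sequences are shown because they lie upstream of genes that rose (Kcnh6, Cacna1s) and of both pacemaker genes that fell (Hcn2, Hcn4). Each run covers bases 250 to 71 before the RefSeq start on build GRCm38.p6, 5′ to 3′ on the strand of the gene, with CpG dinucleotides in capitals. All 4 genes are on the plus strand, and none of the runs overlaps an exon of GENCODE M21.
Kcnh6, chr11:106007898-106008077: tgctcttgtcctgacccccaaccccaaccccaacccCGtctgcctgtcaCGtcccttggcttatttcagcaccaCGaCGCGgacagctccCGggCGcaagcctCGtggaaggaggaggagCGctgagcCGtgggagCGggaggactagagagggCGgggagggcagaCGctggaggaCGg
Cacna1s, chr1:136052561-136052740: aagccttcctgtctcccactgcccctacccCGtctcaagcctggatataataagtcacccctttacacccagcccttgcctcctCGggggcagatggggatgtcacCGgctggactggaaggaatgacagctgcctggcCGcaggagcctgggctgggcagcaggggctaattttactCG
Hcn2, chr10:79716384-79716563: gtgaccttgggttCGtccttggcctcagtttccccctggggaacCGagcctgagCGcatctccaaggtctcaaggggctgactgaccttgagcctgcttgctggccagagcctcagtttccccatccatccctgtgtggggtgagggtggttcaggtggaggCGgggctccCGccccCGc
Hcn4, chr9:58822699-58822878: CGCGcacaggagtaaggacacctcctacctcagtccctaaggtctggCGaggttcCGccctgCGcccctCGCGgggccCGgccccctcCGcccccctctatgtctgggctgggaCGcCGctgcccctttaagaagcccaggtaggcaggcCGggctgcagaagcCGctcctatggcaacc
Kcnh6 held 14 CpG and Hcn4 13, against 5 in Cacna1s, 6 in Hcn2 and a median of 4 over all 32851 windows of the table. Windows with at least as many CpG as Kcnh6 made up 16% of the table, and those with at least as many as Hcn4 made up 18.0%. The full promoter windows, 250 bases before to 50 after a start, were also searched on both strands for TGANTCA, the letters that AP-1 factors bind, and for CACGTG, an E-box. Of the 53 genes, 38 had a window, and 1 of them held TGANTCA (Kcnip3) against 8.97% of all genes in the table. CACGTG was present in 4 (Kcnab1, Kcne4, Kcnj2 and Kcnk5) against 8.09%. These are matches of letters only, and none of the called channel genes with a window held either.

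The pacemaker channels fell together. Hcn2, the main pacemaker subunit of working muscle, had a TPM of 16.70, 8.71 and 11.96 in Saline and 1.81, 6.12 and 3.82 in CDDP hearts. Hcn4, the main subunit of the sinus node, had 1.88, 1.49 and 2.27 in Saline and 0.38, 0.49 and 0.66 in CDDP hearts. For both genes every CDDP heart was below every Saline heart. The log2 fold change was -1.51 ± 0.35 for Hcn2 (adjusted p = 0.014) and -0.93 ± 0.22 for Hcn4 (adjusted p = 0.016). Without Saline heart 1 the adjusted p was 0.061 and 0.053, and without Saline heart 3 that of Hcn4 was 0.056. The 5 nodal markers, 3 of which passed the filter, include the nodal factors Shox2 and Tbx3. They summed to 5.83 to 9.56 in Saline and 4.58 to 10.26 in CDDP hearts, so that they overlapped. The part of nodal cells in the level of Hcn4 was not tested. In knockout hearts Hcn2 was at 6.75, 7.96 and 12.64 without and 4.73, 8.56 and 5.64 with cisplatin, with overlap (-0.46 ± 0.35, adjusted p = 0.62). Hcn4 in these hearts was at 1.56, 1.42 and 3.03 without and 0.65, 1.06 and 0.58 with cisplatin, with no overlap (-0.74 ± 0.22, adjusted p = 0.16).

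Among the auxiliary subunits of voltage-gated potassium channels, Kcne1 fell furthest of all members on the log2 scale. Its protein joins the Kcnq1 pore to make the slow delayed rectifier. It was at 13.82, 7.11 and 8.01 in Saline and at 0.65, 1.30 and 0.98 in CDDP hearts. The mean fell from 9.65 ± 3.64 to 0.977 ± 0.33, with Saline 9.88-fold above CDDP and a log2 fold change of -2.39 ± 0.44 (adjusted p = 0.0046). Kcnq1 had 19.00, 21.68 and 17.08 in Saline and 21.24, 11.29 and 10.93 in CDDP hearts, which overlapped (-0.44 ± 0.30, adjusted p = 0.33). In knockout hearts Kcne1 was at 6.47, 2.88 and 6.00 without and 0.41, 4.57 and 2.16 with cisplatin, with overlap (-1.01 ± 0.44, adjusted p = 0.34).

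Kcnab2, a beta subunit of the Kcna pores, was at 2.59, 1.82 and 1.85 in Saline and 0.60, 0.80 and 0.56 in CDDP hearts. It fell without overlap (-0.89 ± 0.23, adjusted p = 0.020, and 0.081 without Saline heart 1 or 0.051 without CDDP heart 3), though its exons overlap those of Gm16334 on the same strand, whose reads the counting could share. Kcnip2 had 100.21, 45.60 and 54.23 in Saline and 14.46, 86.46 and 38.79 in CDDP hearts. The CDDP group held nearly the whole range of the gene (-0.76 ± 0.50, adjusted p = 0.31). The other 3 of the 6 tested genes of this class, Kcne4, Kcnip3 and Kcnab1, did not pass the test, with log2 fold changes of 0.46, -0.11 and -0.17.

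Of the 9 tested pores of voltage-gated potassium channels, Kcnh6 rose, 1 fell and 7 did not pass. The one that fell was Kcnd2, a pore of the transient outward current, at 4.31, 3.60 and 2.87 in Saline and 0.95, 2.80 and 1.25 in CDDP hearts. The gap between the groups was narrow, from 2.80 to 2.87 (-0.83 ± 0.26, adjusted p = 0.047), and it passed in only 1 of the 12 fits that left out a heart, with an adjusted p of 0.14 without CDDP heart 1. Kcnd3, the other pore of that current, had 1.63, 2.16 and 1.69 in Saline and 0.58, 1.37 and 1.84 in CDDP hearts (-0.36 ± 0.22, adjusted p = 0.28). Kcna5, the ultrarapid delayed rectifier, was at 21.82, 16.12 and 28.16 in Saline and 13.41, 15.75 and 8.10 in CDDP hearts. Its groups did not overlap, and the change of -0.79 ± 0.26 missed the threshold (adjusted p = 0.056).

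Silent subunits do not conduct alone but join other potassium channel pores and change their gating. Kcng2 was the most abundant of them, at 37.88, 45.65 and 43.09 in Saline and 12.33, 20.54 and 16.91 in CDDP hearts. It fell in every CDDP heart to well below the lowest Saline heart, from a mean of 42.2 ± 3.96 to 16.6 ± 4.11 (-1.32 ± 0.21, adjusted p = 0.0024). In the knockout hearts its TPM was 25.17, 36.11 and 40.47 without and 24.06, 25.68 and 19.94 with cisplatin, with overlap (-0.51 ± 0.21, adjusted p = 0.32). Its exons overlap those of D330025C20Rik on the opposite strand, and the strand setting of the counting was not stated. Kcnv2, the other silent subunit that passed, had 0.67, 2.77 and 2.04 in Saline and 0.12, 0.72 and 0.90 in CDDP hearts (-0.80 ± 0.31, adjusted p = 0.093).

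In the calcium channel complex, both auxiliary subunits that carry the cardiac L-type pore to the membrane fell. Cacnb2, the cardiac beta subunit, had a TPM of 19.50, 14.76 and 13.20 in Saline and 5.95, 8.37 and 9.53 in CDDP hearts. Cacna2d1, the main alpha2delta subunit, had 23.40, 22.04 and 23.98 in Saline and 8.07, 14.95 and 13.58 in CDDP hearts. Neither gene had a CDDP heart in the range of the Saline hearts, and both had a log2 fold change of -0.91 ± 0.21, with adjusted p of 0.013 each. Without Saline heart 1 that of Cacnb2 was 0.060. Exons of Cacnb2 overlap those of Gm10849, Gm10848 and Gm13269 on the opposite strand. In the knockout both were again lower with cisplatin in every heart, Cacnb2 at 14.47, 20.35 and 22.86 without and 8.72, 9.38 and 9.04 with it (-0.99 ± 0.21, adjusted p = 0.056). Cacna2d1 was at 26.66, 26.68 and 38.77 without and 14.95, 15.54 and 16.20 with cisplatin (-0.92 ± 0.21, adjusted p = 0.071). Cacna1g, a T-type pore of atrial and nodal cells, was at 5.05, 8.00 and 4.03 in Saline and 1.25, 1.89 and 3.28 in CDDP hearts. It fell just past the threshold (-1.10 ± 0.35, adjusted p = 0.049), and it passed in 3 of the 12 fits that left out a heart, with an adjusted p of 0.14 without CDDP heart 1 and 0.13 without Saline heart 2. The remaining 5 auxiliary and 4 pore genes tested did not pass.

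**Figure D3:**
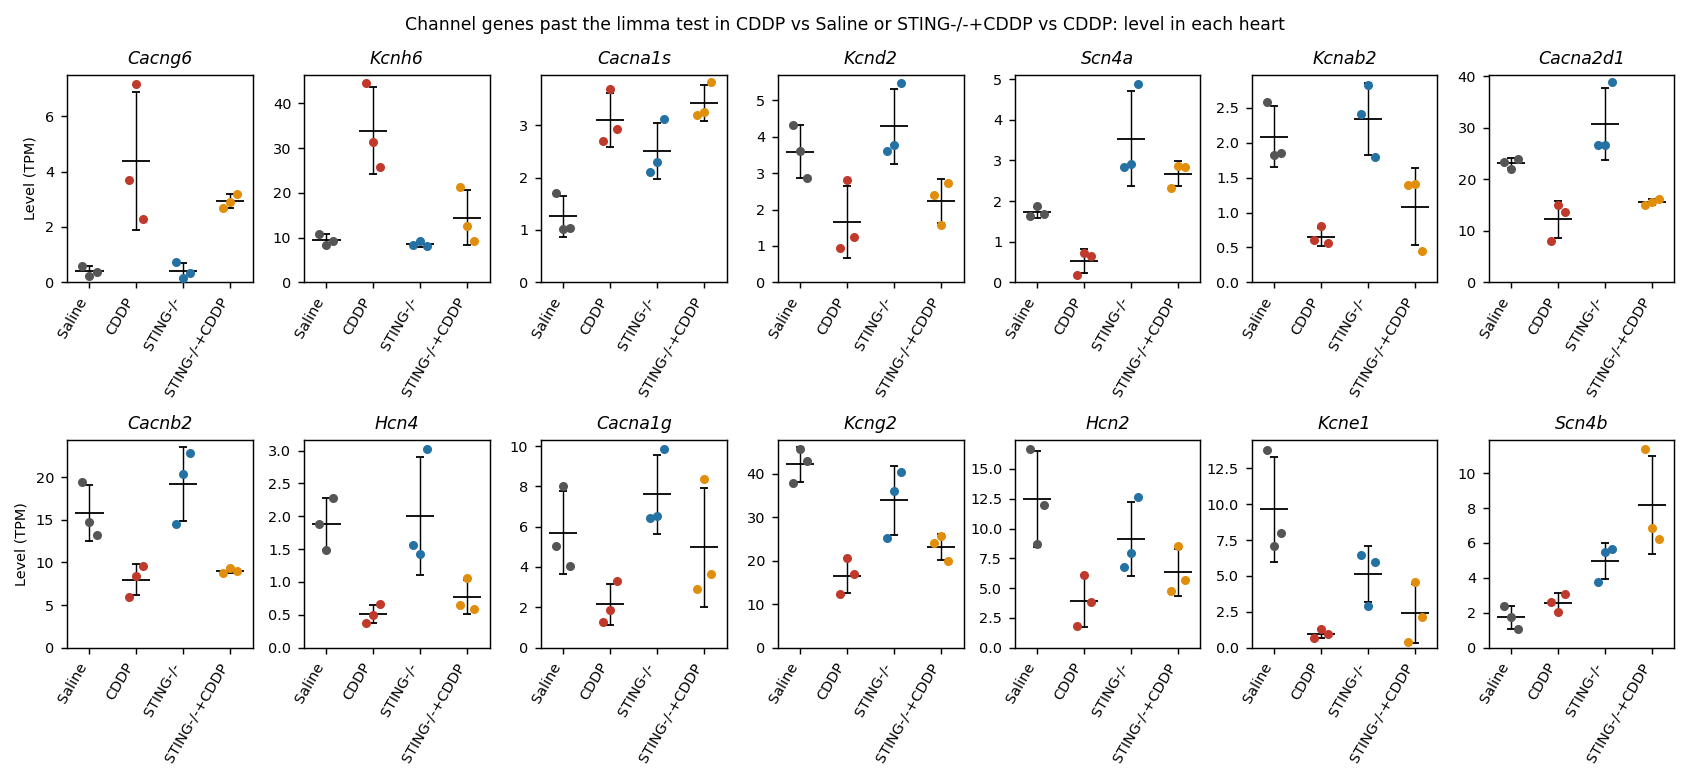
TPM in each heart for the 14 channel genes past the test in CDDP vs Saline or in STING-/-+CDDP vs CDDP, 3 points a group, with the group mean as a line and the SD as a bar; each axis starts at 0 and has its own scale. Kcnh6 reaches 25.73 to 44.59 in CDDP hearts and 8.06 to 10.79 in hearts of either genotype without cisplatin, while Kcne1 stays at 0.65 to 1.30 in CDDP hearts.

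Of the 3 sodium channel pores tested, 1 fell. Scn4a, the pore of skeletal muscle, was at 1.63, 1.88 and 1.67 in Saline and 0.19, 0.72 and 0.65 in CDDP hearts, where it fell without overlap (-0.86 ± 0.21, adjusted p = 0.017; 0.051 without CDDP heart 1). Scn7a, which senses sodium rather than voltage, did not pass the test (0.31 ± 0.36, adjusted p = 0.58). Neither of the 2 tested beta subunits passed, and Scn4b had a change of 0.40 ± 0.25 (adjusted p = 0.30).

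None of the 7 tested inward rectifiers passed in CDDP vs Saline. All 7 changes were negative, where 50.2% of all genes had a negative change, and limma gave 1 of the 7 an unadjusted p under 0.05 (Kcnj8). Kcnj8, the ATP-sensitive pore of vessels and mural cells, was at 48.88, 20.75 and 35.55 in Saline and 13.40, 27.20 and 17.36 in CDDP hearts (-0.80 ± 0.32, adjusted p = 0.098). Rgs5, a pericyte marker, was at 222.85, 142.18 and 235.16 in Saline and 66.92, 108.16 and 81.04 in CDDP hearts. Its list of 7 smooth muscle and pericyte markers summed to 473.56 to 585.5 in Saline and 167.84 to 587.43 in CDDP hearts, which overlapped. The part of such cells in the level of Kcnj8 was not tested. Kcnj11, its counterpart of the muscle cell, had 42.94, 48.38 and 35.99 in Saline and 15.72, 55.40 and 46.65 in CDDP hearts (-0.28 ± 0.36, adjusted p = 0.63). Kcnj2 and Kcnj12, which set the resting potential, had changes of -0.38 and -0.20 with adjusted p of 0.43 and 0.75. For Kcnj8, Kcnj11, Kcnj2 and Kcnj12, CDDP heart 1 was the lowest of the CDDP hearts.

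Kcnj3 and Kcnj5 form the channel through which the vagus slows the atria, and in Saline hearts their levels were high where the atrial markers were. Kcnj3 was at 9.06, 70.10 and 11.91 in Saline hearts 1 to 3, where the atrial markers summed to 310.19, 39132 and 338.74. Kcnj5 was at 17.97, 52.68 and 16.89 in the same hearts. The T-type pore Cacna1h had 1.31, 14.10 and 1.26 and the alpha2delta subunit Cacna2d2 had 0.18, 9.79 and 0.64. Saline heart 2 was thus the highest of its group for all 4 genes and of all 12 hearts for each of them. None differed in CDDP vs Saline, with adjusted p of 0.55, 0.24, 0.70 and 0.65. With the mean log2 level of the atrial markers as a covariate in the limma fit, 3 of the 4 were lower in CDDP, Kcnj3 by -1.30 (adjusted p = 0.037), Kcnj5 by -1.21 (0.0099) and Cacna1h by -1.15 (0.015). That fit called 15 channel genes lower and 3 higher, 34% of those tested against 21.5% of all genes. The genes called in the fit without the covariate kept their calls in it apart from Kcnd2 (adjusted p = 0.061).

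**Figure D4:**
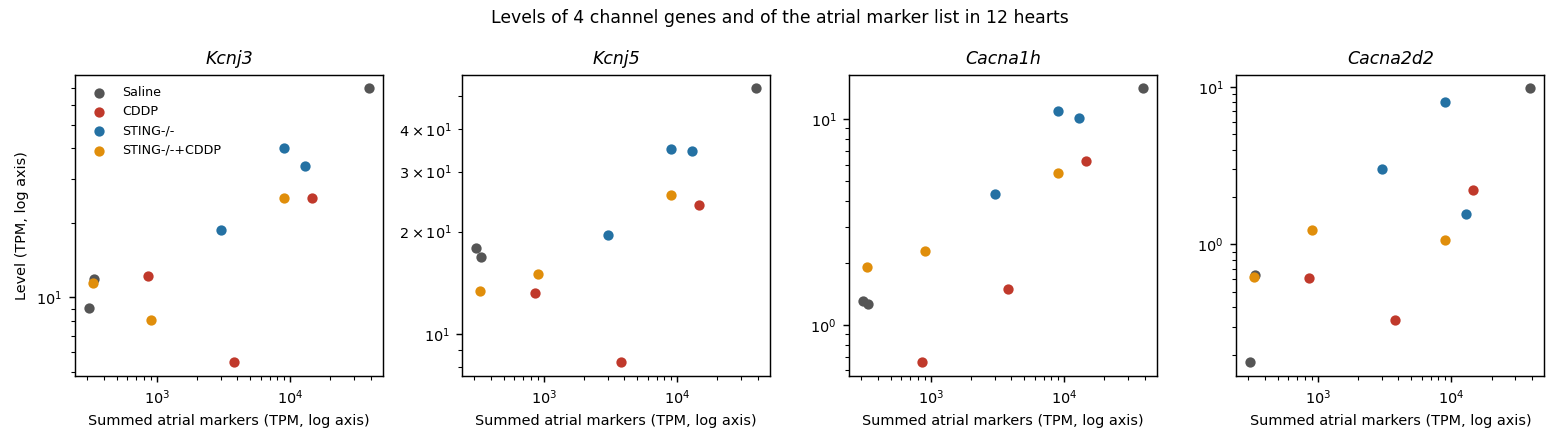
TPM of Kcnj3, Kcnj5, Cacna1h and Cacna2d2 in each of the 12 hearts against the summed TPM of the 5 atrial markers, both on log axes, coloured by group. Saline heart 2, at a marker sum of 39132, has the highest level of each gene, and Saline hearts 1 and 3, at 310.19 and 338.74, are among the lower ones.

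The tandem-pore and calcium- and sodium-activated potassium channels gave no call in CDDP vs Saline in limma, and 1 of the 8 tested had an unadjusted p under 0.05 (Kcnn2). Kcnk3, the leak channel with the highest level of all members, was at 69.73, 75.88 and 65.56 in Saline and 11.38, 73.88 and 59.07 in CDDP hearts. The low value lay in CDDP heart 1 alone (-0.90 ± 0.51, adjusted p = 0.24). The small-conductance channel Kcnn2 had 4.26, 7.62 and 2.62 in Saline and 1.39, 2.76 and 2.03 in CDDP hearts (-0.86 ± 0.32, adjusted p = 0.078). Its relative Kcnn1 had 5.47, 5.84 and 5.74 in Saline and 4.59, 11.39 and 8.64 in CDDP hearts, the opposite order in 2 of the 3 CDDP hearts (0.39 ± 0.32, adjusted p = 0.43).

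Without cisplatin, no channel gene passed limma's test in STING-/- vs Saline, against 0.0724% of all genes, and 3 (5.66%) had an unadjusted p under 0.05, against 3.69%. The TPM of the groups did not overlap for 5 genes higher in STING-/- (9.43%), against 2.76% of all genes, and for 2 lower (3.77%), against 4.88%. With 3 hearts a group, these p-values do not show that the genotypes were alike. The 3 genes with a low unadjusted p are given first. Scn4b, a sodium channel beta subunit, was at 2.41, 1.75 and 1.09 in Saline and 3.76, 5.49 and 5.64 in STING-/- hearts (1.13 ± 0.25, adjusted p = 0.28). Scn4a was at 2.83, 2.90 and 4.88 in STING-/- hearts (0.71 ± 0.21, adjusted p = 0.85), and Cacna1s at 2.10, 2.30 and 3.12 (0.64 ± 0.19, adjusted p = 0.76). In all 3 the STING-/- hearts lay above the Saline hearts given before. The 2 lower genes were Kcnip2 and Kcne1. Kcnip2 was at 35.65, 23.96 and 32.20 in STING-/- hearts, with a Saline mean 2.18-fold higher (-1.03 ± 0.50, unadjusted p = 0.061 in limma). Kcne1, at 6.47, 2.88 and 6.00, had a Saline mean 1.89-fold higher (-0.81 ± 0.44, unadjusted p = 0.093 in limma). Neither had an adjusted p under 1.

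Under cisplatin, 2 sodium channel genes were higher in the knockout. In STING-/-+CDDP vs CDDP, Scn4a and Scn4b passed (3.77%), against 0.362% of all genes called higher, and no channel gene was lower, against 0.854%. At an unadjusted p under 0.05 in limma there were 8 channel genes (15.1%), against 19.8% of all genes. The TPM of the groups did not overlap for 4 channel genes higher in STING-/-+CDDP (7.55%), against 984 of all 13815 genes. They did not overlap for 1 lower (1.89%), against 2157 of all genes. Scn4b was at 2.64, 2.03 and 3.07 in CDDP and 11.40, 6.88 and 6.24 in STING-/-+CDDP hearts (1.33 ± 0.25, adjusted p = 0.035). Scn4a was at 0.19, 0.72 and 0.65 in CDDP and 2.32, 2.87 and 2.83 in STING-/-+CDDP hearts (1.29 ± 0.21, adjusted p = 0.022). The groups did not overlap for either gene. Both were also higher in STING-/- than in Saline hearts at unadjusted p, as given above, and neither had an interaction past the threshold. Without CDDP heart 1 the adjusted p was 0.072 for Scn4b and 0.056 for Scn4a, and no channel gene was called. With no filter no channel gene was called either, and Scn4a had passed the filter with no CDDP heart at a TPM of 1 or more. Scn4a passed in 7 and Scn4b in 3 of the 12 fits that left out a heart. The median log2 fold change of the 53 genes was 0.27, where that of all genes was -0.09, and without CDDP heart 1 it was 0.03 against -0.17.

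Kcnh6 came close to the threshold in the other direction. Its STING-/-+CDDP hearts, at 21.23, 12.68 and 9.29, were all below its CDDP hearts, at 44.59, 31.36 and 25.73. The log2 fold change was -1.22 ± 0.27 and the adjusted p 0.052, with a p of 0.00068 before adjustment. Kcnh6 was called lower in 3 other settings, with the filter at a TPM of 5 (adjusted p = 0.041), with the replicate block (0.049) and without STING-/-+CDDP heart 1 (0.044), and over all settings tried its adjusted p ran up to 0.18. The share of Kcnh6 in the sum with Kcnh2 was 26.3% to 35.9% in STING-/-+CDDP and 14.8% to 21.7% in STING-/- hearts. Cacng6, by contrast, was at 2.29 to 7.15 in CDDP and 2.68 to 3.20 in STING-/-+CDDP hearts, a difference of -0.35 ± 0.29 (adjusted p = 0.54).

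In STING-/-+CDDP vs STING-/-, 1 channel gene was called higher, Cacng6, in the call that depended on the filter, against 0.253% of all genes called higher, and no channel gene fell, against 0.68%. Of the 53 genes, 15 (28.3%) had an unadjusted p under 0.05, against 13.5% of all genes. The hearts with cisplatin lay below those without it, with no overlap, for 13 genes (24.5%) against 16.9% of all genes, and above for 5 (9.43%) against 7.28%. The median of the 53 was -0.29 and that of all genes -0.11. That of all genes came to 0.01 when TPM were rescaled by the median of ratios, with a median of -0.21 for the 53. The change here was negative for 38 of the 53 (71.7%) and for 64.6% of all genes. The 3 genes that rose and the 10 that fell in CDDP vs Saline all had a change of the same sign here. These comparisons share no heart, but the share of same signs among all genes called in CDDP vs Saline was not computed.

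Whether cisplatin acted differently in the genotypes was asked by the interaction term. No channel gene passed it in limma, against 0.00724% of all genes, and 4 (7.55%) had an unadjusted p under 0.05, against 11.7% of all genes. Among them were Kcnh6 (-1.09 ± 0.38, adjusted p = 0.36), Kcng2 (0.81 ± 0.30, 0.37) and Kcne1 (1.38 ± 0.62, 0.42). A change past the threshold in wild type and not in knockout hearts was therefore not shown to differ between them.

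Channels work with further proteins, taken here from lists of accessory proteins, connexins and transcription factors. In CDDP vs Saline, 3 of 16 tested accessory genes fell and none rose, where 10.4% of all genes tested fell and 8.52% rose. Abcc9, the regulatory subunit of the ATP-sensitive channel, had 58.01, 24.58 and 41.59 in Saline and 11.06, 31.06 and 17.06 in CDDP hearts, which overlapped (-1.07 ± 0.34, adjusted p = 0.046). Ank2, which anchors channels to the membrane skeleton, had 26.81, 24.13 and 18.37 in Saline and 7.22, 14.17 and 12.64 in CDDP hearts (-1 ± 0.24, adjusted p = 0.016). Rangrf, which helps sodium channels reach the membrane, was at 66.28, 55.26 and 69.67 in Saline and 41.07, 41.60 and 42.28 in CDDP hearts (-0.60 ± 0.13, adjusted p = 0.0096). Ank2 and Rangrf did not overlap between the groups.

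Of 3 tested connexins, 1 fell, Gja1, the main gap junction protein of the ventricle. It was at 180.30, 116.92 and 106.95 in Saline and 74.58, 58.14 and 69.63 in CDDP hearts (-0.96 ± 0.19, adjusted p = 0.0074). In knockout hearts it fell as well, from 87.25, 118.78 and 97.55 to 47.67, 50.11 and 44.81 (-1.06 ± 0.19, adjusted p = 0.029). In either genotype the hearts with cisplatin were all below those without. Of 12 transcription factors of cardiac conduction, 1 fell in CDDP vs Saline, Irx5, a repressor of Kcnd2, from 3.30, 1.75 and 2.90 to 1.25, 1.34 and 0.95 (-0.72 ± 0.22, adjusted p = 0.038). Of all genes tested, 10.4% fell in CDDP vs Saline and 0.68% in STING-/-+CDDP vs STING-/-. No other gene of the accessory, connexin and transcription factor lists passed in any of the 5 tests.

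Markers of other cells moved with the same contrast, and their part in the channel results was not tested. In CDDP vs Saline, 4 of 5 tested endothelial, 3 of 4 macrophage, 3 of 3 erythroid, 2 of 7 smooth muscle and pericyte and 1 of 4 fibroblast markers fell. The share of all genes tested that fell was 10.4%. The endothelial list summed to 484.51 to 634.7 in Saline and 339.91 to 419.7 in CDDP hearts. The 7 neuron markers, 2 of which passed the filter, summed to 16.6 to 17.9 in Saline and 3.87 to 6.73 in CDDP hearts. Dbh, an enzyme of noradrenaline synthesis, fell from 8.41, 8.51 and 7.01 to 1.09, 0.31 and 1.04 (-2.33 ± 0.27, adjusted p = 0.00078). Stmn2 was at 9.27, 8.52 and 9.25 in Saline and 1.43, 6.05 and 5.15 in CDDP hearts, with no overlap (-1.08 ± 0.38, adjusted p = 0.069). Of the 7 cardiomyocyte markers, Actc1 fell and Tnnt2 rose in this contrast, and the other 5 did not pass.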

How the data were processed

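Hearts of 12 mice, 3 in each group, were measured by RNA-seq and grouped by the genotype and treatment in the labels. Each gene has a TPM value for every heart, as deposited by the authors. The submitters' processing notes name fastp, HISAT, RSEM and the build GRCm38.p5, with no version or role, and the strand setting and annotation were not given in the sources used here. The columns of group means by the authors were not used. TPM are relative within a library and are not counts, so no count model was fitted and depth is unknown.

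The scale was log2(TPM + 1). The 13815 genes tested reached a TPM of 1 in 3 or more hearts. All 12 hearts entered one limma 3.58.1 fit in R 4.3.3 (eBayes with a trend, two-sided), with Benjamini-Hochberg adjustment over all tested genes and a threshold of 0.05, the cutoff that the methods state. The procedure was tested on simulated data. Contrasts with a common group share hearts. CDDP enters CDDP vs Saline and STING-/-+CDDP vs CDDP. The hearts are separate mice. The p-values set each difference against a spread between mice, estimated over all 4 groups and shared in part over the tested genes. Channel genes were matched to GENCODE M21 (all 138 by identifier) and to the RefSeq promoter table of GRCm38.p6 (101 of 138 by symbol). Figures were drawn with matplotlib 3.10.9.

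The members, classes and lists were chosen with earlier results of these data known. Named were the principal cardiac subunits, the 10 members with the highest mean TPM and the members called in each comparison (up to 15 in a direction), and up to 5 called genes from the lists of accessory proteins, connexins and transcription factors in each comparison. Other members, and the marker genes Rgs5, Tnni2, Myh1, Myh4, Actc1, Tnnt2, Dbh and Stmn2, were named after their values were seen. Alternatives were another pseudocount, other filters and scalings, fits of fewer hearts, weights, a block, an atrial covariate and a limit on fold change. Results for some genes are not reported here, and the figures leave them out.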

Additional observations from a re-analysis of the deposited data

How the results depend on the processing

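Among the 31 named channel genes, no called value changed sign in the settings tried. In CDDP vs Saline, 13 channel genes were called. The count was 7 when 3 or more hearts had to reach a TPM of 5, 4 with only the hearts of the groups compared, 6 when a log2 fold change of 1 or more in size was also asked, and 8 to 15 when 1 heart was left out (8 without Saline heart 1, 15 without CDDP heart 2). Kcne1, Kcng2, Kcnh6 and Cacng6 passed in every setting that tested them, including each fit without 1 heart. Kcnd2 passed in 4 of 12 settings and 1 of 12 fits without a heart, and Cacna1g in 8 of 13 and 3 of 12. In STING-/-+CDDP vs CDDP, 2 genes were called, against 0 with no filter, 0 with only the groups compared and 0 to 2 without 1 heart, where leaving out CDDP heart 1 or 3 or STING-/-+CDDP heart 2 or 3 gave 0, and leaving out CDDP heart 2, STING-/-+CDDP heart 1 or any STING-/- heart gave 1. In STING-/-+CDDP vs STING-/-, 1 gene was called, against 0 with no filter or the filter at a TPM of 5, 2 with the median of ratios, 2 without mitochondrially encoded genes, 2 with quantile normalization, 3 with arrayWeights, 0 with the atrial covariate and 0 to 3 without 1 heart (0 without any knockout heart or Saline heart 3, 2 without Saline heart 1, 3 without CDDP heart 1). The cause of these shifts was not tested, other than that a stricter filter tests fewer genes and a fit of fewer hearts has a smaller sample. STING-/- vs Saline and the interaction gave 0 in every setting.

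With the replicate number of the labels as a block, the replicate block fit called 12 genes in CDDP vs Saline, 2 in STING-/-+CDDP vs CDDP (Scn4a higher, Kcnh6 lower) and 0 in STING-/-+CDDP vs STING-/-. The deviations of same-numbered hearts from their group means correlated between -0.33 and 0.26 over 18 pairs, above 0.1 in 4. Those of hearts with different numbers correlated between -0.31 and 0.43 over 36 pairs, above 0.1 in 11. With so few hearts a group, these correlations cannot decide whether same-numbered hearts shared more than a number.

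TPM carry no depth, so counting error could not be given, and genes near a TPM of 1 are the least precise.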

Other observations

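Levels under the filter are given here as values. Kcna4, a slower transient outward pore, was at 0.55, 0.95 and 0.38 in Saline and 0.24, 0.19 and 0.25 in CDDP hearts, and at 0.10 to 0.31 in the knockout hearts of either treatment. Kcne1l, a relative of Kcne1, was at 0.47, 0.59 and 0.34 in Saline and 0, 0.03 and 0.07 in CDDP hearts. In the knockout it was at 0.46, 0.03 and 0.08 without and 0.32, 0.15 and 0.04 with cisplatin, with overlap. Kcna2 stayed between 0.43 and 0.97 in all 12 hearts. These genes were picked after their values were seen, and they did not enter the main fit. In the limma fit with no filter, Kcna4 and Kcne1l were called lower in CDDP vs Saline at an adjusted p under 0.05. In that fit 7.87% of the channel genes were called lower, against 4.19% of all genes.

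Kcnq1ot1, the noncoding RNA antisense to Kcnq1, was listed at 0.01 to 0.04 in every heart, where Kcnq1 was at 9.43 to 21.68. Among the genes that passed the filter, exons of 18 overlap those of another gene on the opposite strand in GENCODE M21, and without a stated strand setting the reads of such pairs cannot be told apart.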
